A study of Mus musculus with 2 samples.

Results

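The genes of cholesterol synthesis, with the regulators that set their transcription and the carriers that move sterol, were followed in the pre-implantation uterus of mice with and without repression of VEGF. They were chosen by name, as the rows of the deposited gene table that carry one of 28 symbols, and all 28 were among the 14678 genes of that table. Of these, 18 encode enzymes from acetyl-CoA to cholesterol, 5 encode the sterol-regulated transcription factors and the membrane proteins that hold or release them, and 5 encode sterol carriers, exporters or receptors.

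The study asked which uterine genes depend on VEGF at gestation day 2.5 (G2.5). Both groups were double transgenic females (VEGFtetO/tetO/beta-AKtg/wt), in which tet operators sit in the VEGF promoter and a tetR-Krab repressor is expressed in all tissues from the beta-actin promoter. Dox+ females ate doxycycline chow, which keeps the repressor off the promoter, and are labelled VEGF-normal (wild type) although they carry both engineered alleles. Dox- females, their littermates, were taken off doxycycline when young, weeks before mating, and are labelled VEGF-repression. Young adult females of both groups were mated with VEGFtetO/tetO males. VEGF repression and the absence of the drug therefore cannot be told apart. RNA of 3 uteri was pooled per group, 6 µg in all, and 1 digital gene expression library was sequenced from each pool, so no difference has a replicate check.

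Cholesterol is built from acetyl-CoA. Enzymes of the mevalonate stage make isoprene units and join them into squalene, and enzymes of the sterol stage close squalene into lanosterol and trim it to cholesterol. When membrane sterol is low, SCAP carries the SREBP transcription factors from the endoplasmic reticulum to the Golgi, where they are cut and released to the nucleus, and when sterol is plentiful INSIG proteins hold SCAP back. SREBP-2 mainly drives cholesterol genes, SREBP-1c mainly drives fatty acid genes, and the uterus uses cholesterol for membranes of dividing cells.

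Levels are copy numbers, the tags assigned to a gene, and TPM, the copies per 1000000 clean tags, which here carries no correction for gene length. The Dox+ library held 5985925 clean tags and the Dox- library 5844315, of which 74.1% and 72.2% were counted for a gene. A difference is the log2 ratio of tag shares, Dox- over Dox+, with an exact Clopper-Pearson 95% interval that covers counting error only, and tags without molecular identifiers are not independent molecules. A gene was called when its combined copy number over both libraries was at least 200 and its fold change at least 1.5 in either direction. Vegfa, the targeted gene, had 247 copies in Dox+ and 125 in Dox-, a log2 ratio of -0.95 (95% interval -1.27 to -0.63). Whole pieces of uterus were measured, so fewer cells of a type and less RNA per cell cannot be told apart.

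Of the 28 genes, 17 reached 200 combined copies. Srebf1, Mvd and Abca1 were higher in Dox-, Nsdhl and Npc1 were lower, and 12 did not pass the fold limit. Called genes made up 29.4% of the 17, against 29.9% of all 6547 genes with enough copies, so the share of called genes was close to the background. In the separate directions the background was 15.2% higher and 14.7% lower. The median log2 ratio of the 17 was -0.21, with a range of -0.85 to 0.83, beside a median of 0.03 over all genes with enough copies. No common direction ran through the pathway. The other 11 genes had too few copies for a call, and the combined copies of the 28 ranged from 21 to 1281.

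**Figure D1:**
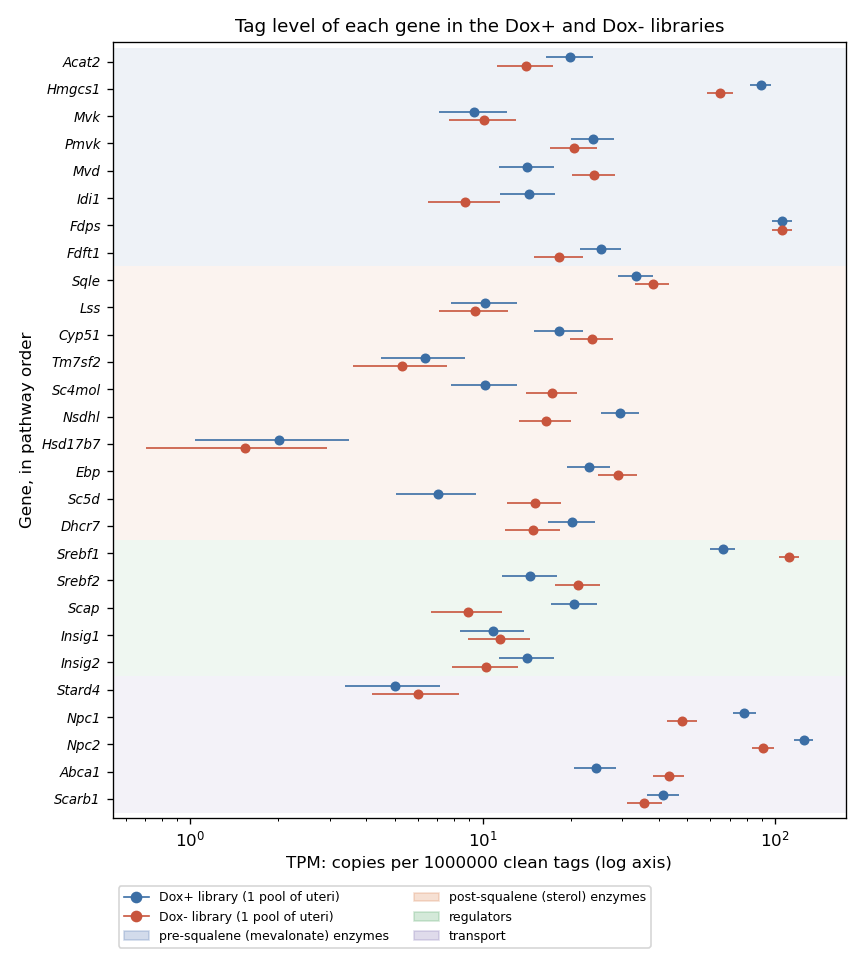
TPM (copies per 1000000 clean tags, log axis) of the 28 genes in pathway order, with 1 point for the Dox+ library and 1 for the Dox- library and bars for the exact Poisson 95% interval of the count. Fdps sits near 106 in both libraries, Srebf1 and Abca1 are further right in Dox-, and Npc1, Npc2, Nsdhl and Scap are further left.

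The mevalonate stage held 8 enzymes, 6 of them with enough copies, of which Mvd passed the fold limit upward and none downward. Summed over the 8 enzymes, 1809 copies were counted in Dox+ and 1559 in Dox-, a fold of 0.883 (95% interval 0.824 to 0.945). The sum was thus lower in Dox- by less than the fold limit, while its members went both ways.

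Acat2, which joins acetyl-CoA units in the cytosol, had 119 copies in Dox+ and 82 in Dox-, a log2 ratio of -0.50 (-0.93 to -0.09). Hmgcs1, which adds the next acetyl unit to form HMG-CoA, had 535 and 380 copies, a log2 ratio of -0.46 (-0.65 to -0.27). Both were below the Dox+ level by more than counting error but did not reach 1.5-fold. Mvk, the first mevalonate kinase step, had 56 and 59 copies, too few for a call, and its interval (-0.44 to 0.66) took in no difference. Pmvk, the next kinase, had 143 copies in Dox+ and 120 in Dox-, and its log2 ratio of -0.22 (-0.58 to 0.14) also took in no difference.

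Mvd, which decarboxylates mevalonate diphosphate to isopentenyl diphosphate, was the called enzyme of this stage. It had 85 copies in Dox+, or 14.2 TPM, and 140 in Dox-, or 24.0 TPM. It was 1.69-fold higher in Dox- (95% interval 1.28 to 2.24), and lies on the minus strand of chromosome 8 at chr8:124957496-124967322 in build NCBIM37 (mm9). Its 225 combined copies were close to the minimum of 200, which it reached because its Dox- level was the higher. Idi1, which acts directly on the product of Mvd, went the other way, with 86 copies in Dox+ and 51 in Dox-, a log2 ratio of -0.72 (-1.25 to -0.20). Its 137 combined copies were too few for a call. The tag ratios of Mvd and Idi1, enzymes of neighbouring steps, therefore lay apart in these libraries, with intervals that do not overlap.

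Fdps, which builds farnesyl diphosphate, the branch point to dolichol, ubiquinone and protein prenylation, had 633 copies in Dox+ and 620 in Dox-. Its log2 ratio of 0.00 (-0.16 to 0.17) was among the most precisely counted of the 28 and left room for little difference between the libraries. Fdft1, squalene synthase, which commits farnesyl diphosphate to sterols, had 152 and 107 copies, a log2 ratio of -0.47 (-0.84 to -0.11). Fdft1 shares 769 exon bases on the opposite strand with Ctsb, which had 2719 copies in Dox+ and 3145 in Dox-. The paper reports sense and antisense levels separately, but does not state whether tags of both strands enter the deposited copy numbers. The value of Fdft1 is therefore uncertain. So are those of Lss, Srebf1, Scap and Npc1, which also share exon bases with a gene on the opposite strand. Tm7sf2 is uncertain for another reason, as its overlap is on the same strand, where strand cannot tell tags apart.

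**Figure D2:**
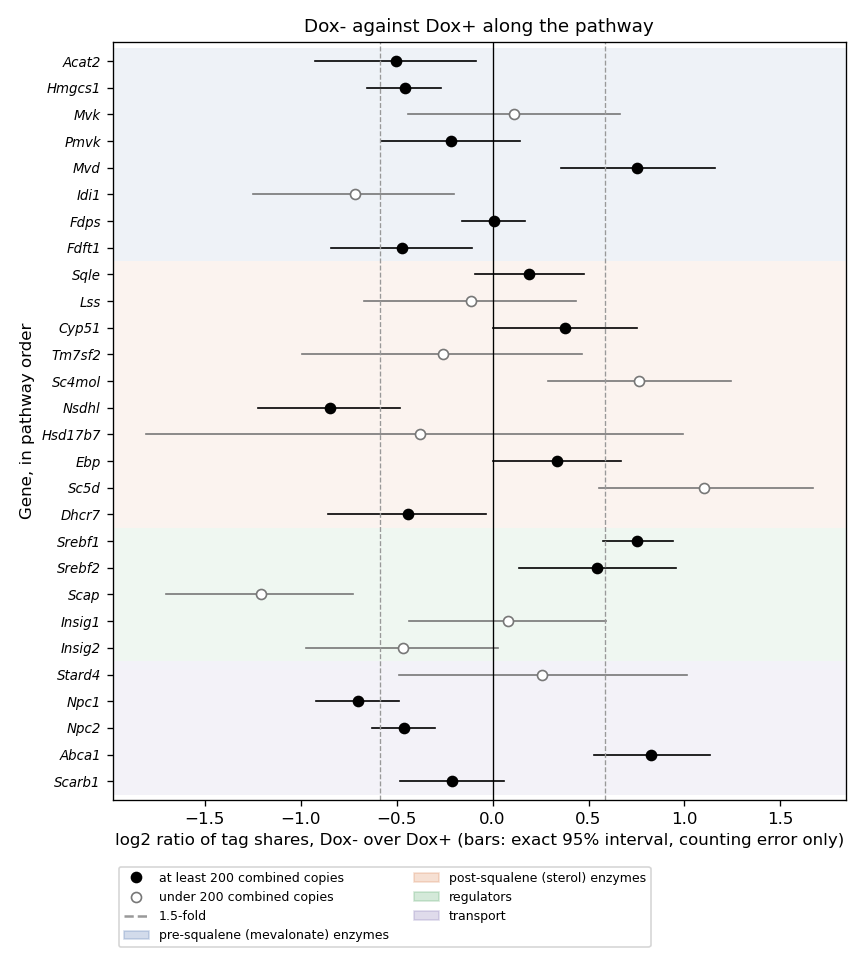
Log2 ratio of tag shares, Dox- over Dox+, of the 28 genes in pathway order, with exact 95% intervals for counting error as bars, filled points for genes with at least 200 combined copies, open points for those under it and dashed lines at 1.5-fold. Mvd, Srebf1 and Abca1 lie past the line on the right and Nsdhl and Npc1 on the left, with open points of Sc4mol, Sc5d, Idi1 and Scap past the lines as well.

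The sterol stage held 10 enzymes, 5 of them with enough copies, of which Nsdhl was called lower and none was called higher. Their summed copies were 959 in Dox+ and 998 in Dox-, a fold of 1.07 (0.975 to 1.17), so the stage as a whole did not differ beyond counting error. Within it, 4 intervals lay above a ratio of 1, 2 lay below and 4 took it in.

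Sqle, the squalene epoxidase that opens the stage, had 200 copies in Dox+ and 223 in Dox-, a log2 ratio of 0.19 (-0.09 to 0.47). Lss, which closes the ring system to lanosterol, had 61 and 55 copies, a log2 ratio of -0.12 (-0.67 to 0.44). It shares 381 exon bases on the opposite strand with 4930483K19Rik. Neither of these entry steps differed beyond counting error.

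Cyp51, the lanosterol demethylase, had 109 copies in Dox+ and 138 in Dox-, a log2 ratio of 0.38 whose interval only just lay above 0 (0.002 to 0.75). Tm7sf2, a sterol reductase of the next step, had 38 and 31 copies, and shares 532 exon bases on the same strand with 1110014N23Rik. Few copies of it were counted, and its interval of -0.99 to 0.47 was wide.

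Removal of the methyl groups left on the ring falls to Sc4mol, Nsdhl and Hsd17b7, which act in turn on the same carbon. Sc4mol, the oxidase, had 61 copies in Dox+ and 101 in Dox-, 1.70-fold higher (1.22 to 2.37) but with 162 combined copies too few for a call. Nsdhl, the dehydrogenase that follows, had 177 copies in Dox+, or 29.6 TPM, and 96 in Dox-, or 16.4 TPM. It was 1.80-fold lower in Dox- (1.40 to 2.33), the largest fold among the 5 called genes, and lies on the plus strand at chrX:70163896-70203853 (NCBIM37). Its 273 combined copies came mostly from Dox+. Hsd17b7, the reductase of the group, had 12 and 9 copies, the fewest of the 28 genes, and its log2 interval of -1.81 to 0.99 allowed a difference of either sign. Sc4mol and Nsdhl, successive enzymes of this group, had intervals on opposite sides of no difference.

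Ebp, the sterol isomerase, had 138 copies in Dox+ and 170 in Dox-, a log2 ratio of 0.34 (0.003 to 0.67). Sc5d, which places the next double bond, had 42 and 88 copies, 2.15-fold higher in Dox- (1.47 to 3.18). Its fold was larger than that of any called gene of the 28, but its 130 combined copies kept it from a call. Dhcr7, the reductase that makes cholesterol from the product of Sc5d, had 121 and 87 copies, a log2 ratio of -0.44 (-0.86 to -0.03), below Dox+ by less than 1.5-fold.

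Over all 18 enzymes, 2768 copies were counted in Dox+ and 2557 in Dox-, or 462 and 438 TPM, a fold of 0.946 (0.896 to 0.999). That interval takes in 0.974, the fold of the summed copies over all genes of the table. Of the 11 with enough copies, 1 was called higher, 1 lower and 9 neither, which is 18.2% called against 29.9% over all genes, and their median log2 ratio was -0.22. The summed level differed little between the libraries, while single enzymes lay on both sides of it.

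The sequence around the transcription start is shown for Hmgcs1, a classic SREBP target, and for Mvd and Nsdhl, the enzymes called in opposite directions. Promoters run from 250 bases before to 50 after the start, from RefSeq on GRCm38.p6, and 22 of the 28 genes had at least 1 in the table. Fdft1, Fdps, Npc1, Scarb1, Sqle and Stard4 had none. Capitals mark TCACNCCAC, a form of the sterol regulatory element, and CCAAT, the box bound by NF-Y, which appears as ATTGG when it lies on the opposite strand. The Hmgcs1 promoter is at chr13:119690101-119690400 on the plus strand, that of Mvd at chr8:122443373-122443672 on the minus strand and that of Nsdhl at chrX:72918271-72918570 on the plus strand.
Hmgcs1: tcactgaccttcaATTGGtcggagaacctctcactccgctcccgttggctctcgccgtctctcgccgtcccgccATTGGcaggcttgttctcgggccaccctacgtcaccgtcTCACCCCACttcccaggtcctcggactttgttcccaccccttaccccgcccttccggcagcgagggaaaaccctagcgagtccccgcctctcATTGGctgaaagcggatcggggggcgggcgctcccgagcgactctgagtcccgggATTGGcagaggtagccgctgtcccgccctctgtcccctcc
Mvd: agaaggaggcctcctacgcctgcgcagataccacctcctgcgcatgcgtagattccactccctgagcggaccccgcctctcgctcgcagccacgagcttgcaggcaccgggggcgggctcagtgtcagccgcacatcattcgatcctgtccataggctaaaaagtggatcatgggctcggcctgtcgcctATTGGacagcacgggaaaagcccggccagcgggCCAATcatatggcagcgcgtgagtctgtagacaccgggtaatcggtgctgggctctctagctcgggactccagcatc
Nsdhl: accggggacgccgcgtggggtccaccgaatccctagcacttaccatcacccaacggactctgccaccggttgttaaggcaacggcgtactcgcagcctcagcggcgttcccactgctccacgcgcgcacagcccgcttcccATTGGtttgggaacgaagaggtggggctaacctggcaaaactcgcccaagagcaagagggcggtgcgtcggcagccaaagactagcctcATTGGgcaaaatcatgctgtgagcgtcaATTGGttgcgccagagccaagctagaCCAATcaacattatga

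TCACNCCAC, searched on both strands, was found in the promoter of Hmgcs1, starting 137 bases before the start, and in no other of the 22 genes, beside 1.24% of all 32851 promoters. CCAAT was found in 20 of the 30 promoters of these genes (66.7%), in 14 of the 18 enzyme promoters (77.8%) and in 37.4% of all promoters. Counted by gene, 14 of the 15 enzymes with a promoter held it, a share without a background by gene. GGGCGG, the letters of a GC box, was found in 83.3% and 35.7% of promoters. The marked letters do not overlap one another in the 3 promoters shown. Mvd and Nsdhl both held CCAAT, at 2 and 4 places, while their tag shares differed in opposite directions. A match describes letters in this window and is not evidence of binding, and no match says only that these letters are not there.

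Of the 5 regulators, Srebf1 was called higher in Dox- and none was called lower. Srebf1, which encodes both SREBP-1a and SREBP-1c, had 397 copies in Dox+, or 66.3 TPM, and 654 in Dox-, or 112 TPM. It was 1.69-fold higher in Dox- (1.49 to 1.92), the narrowest interval of the 5 called genes, and lies on the minus strand at chr11:60012591-60036083 (NCBIM37). It shares 109 exon bases on the opposite strand with Rai1, which had 214 copies in Dox+ and 281 in Dox-, so this call carries the uncertainty given for Fdft1. The tags do not separate the SREBP-1a and SREBP-1c transcripts, and the copy number says nothing of the cut, nuclear protein.

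Srebf2, the main activator of cholesterol genes, had 87 copies in Dox+ and 124 in Dox-, 1.46-fold higher (1.10 to 1.94). It lay just outside the fold limit, with Npc1 at 1.63-fold just inside it. Scap, the escort that carries both SREBPs to the Golgi, had 123 copies in Dox+ and 52 in Dox-, 2.31-fold lower (1.66 to 3.26). This was the largest fold of the 28 genes in either direction, on 175 combined copies, too few for a call. Scap shares 985 exon bases on the opposite strand with 5830462I19Rik, and its value is uncertain in the same way.

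Insig1, which retains SCAP in the endoplasmic reticulum and is itself an SREBP target, had 65 copies in Dox+ and 67 in Dox-, a log2 ratio of 0.08 (-0.44 to 0.59). Insig2, its relative with the same role, had 85 and 60 copies, a log2 ratio of -0.47 (-0.97 to 0.03). Neither differed beyond counting error at this depth. The transcription factors and their escort thus lay on opposite sides of no difference, with the retention proteins between them.

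Of the 5 carriers, exporters and receptors, Abca1 was called higher in Dox- and Npc1 lower. Summed copies of the group were 1644 in Dox+ and 1310 in Dox-, a fold of 0.816 (0.758 to 0.878). Npc1, the membrane protein that passes cholesterol out of lysosomes, had 470 copies in Dox+, or 78.5 TPM, and 282 in Dox-, or 48.3 TPM. It was 1.63-fold lower in Dox- (1.40 to 1.89), and shares 192 exon bases on the opposite strand with 3110002H16Rik and 90 with Gm15956, so this call too is uncertain. Npc2, the soluble protein that hands cholesterol to NPC1, had 750 and 531 copies, a log2 ratio of -0.46 (-0.63 to -0.30), the same direction without reaching 1.5-fold. Npc2 had the most combined copies of the 28 genes, 1281.

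Abca1, the pump that exports cholesterol to apolipoprotein acceptors and a target of the sterol sensor LXR, had 146 copies in Dox+, or 24.4 TPM, and 253 in Dox-, or 43.3 TPM. It was 1.77-fold higher in Dox- (1.44 to 2.19), and lies on the minus strand at chr4:53043659-53172767 (NCBIM37). Scarb1, the HDL receptor, had 248 and 209 copies, a log2 ratio of -0.21 (-0.49 to 0.06). Stard4, a small cytosolic sterol carrier, had 30 and 35 copies, a log2 ratio of 0.26 (-0.49 to 1.01). Abca1 and Npc1 were thus called in opposite directions, with the Npc1 call uncertain as given above, and neither Scarb1 nor Stard4 differed beyond counting error.

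**Figure D3:**
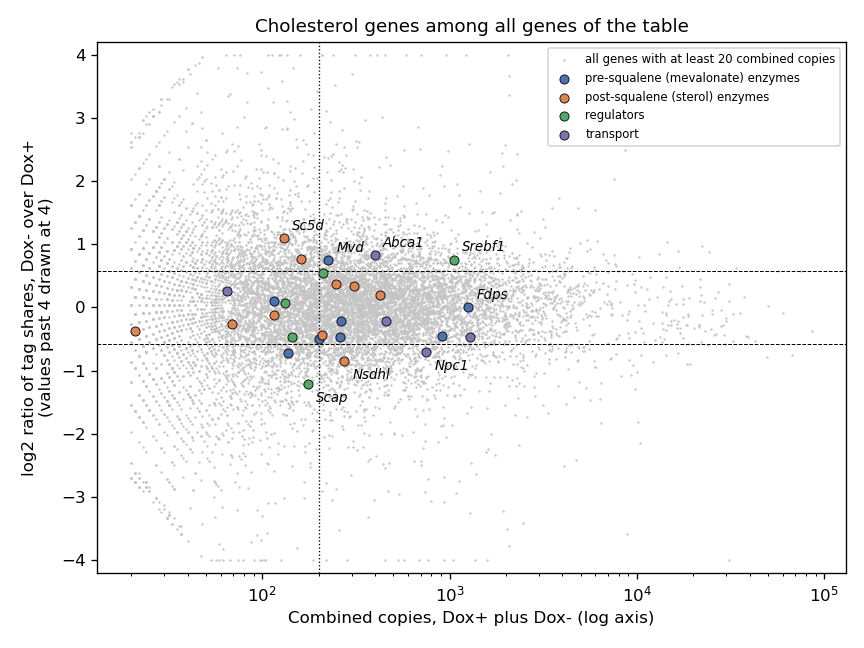
Log2 ratio of tag shares, Dox- over Dox+, against combined copies (log axis) for all genes with at least 20 combined copies in grey and the 28 genes in colour by role, with dashed lines at 1.5-fold and a dotted line at 200 combined copies. The 28 genes lie inside the grey cloud at their copy number, and Scap and Sc5d, left of the dotted line, are the ones farthest from 0.

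All 28 genes had at least 20 combined copies. At that depth the 95% interval excluded a ratio of 1 for 17 of them, 8 above and 9 below, against 54.7% of all 12079 genes with as many copies (28.5% above and 26.2% below). Among genes with at least 20 but under 200 combined copies, the background was 41.1%. Since 54.7% of genes with this many copies differed between the pools beyond counting error, an interval that excludes 1 does not set a gene apart. The 13 genes with a ratio above 1 and the 15 below it were spread over all 4 roles.

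Levels between genes were compared per kilobase of the longest coding transcript, for the 27 genes in the annotation used (Hmgcs1 was not). On TPM per kilobase, Fdps stood first in both libraries, at 85.8 in Dox+ and 86.0 in Dox-. Npc2 came second, at 38.4 and 27.9. Hsd17b7 was lowest, at 0.435 and 0.334, and Srebf1 moved from rank 5 in Dox+ (15.4) to rank 3 in Dox- (26.0). The order mixes different transcript ends and lengths and is a description only.

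Neighbouring pathways were read from 8 further lists, of which 98 genes were in the table and 66 had enough copies. Of these, 8 were called higher and 11 lower, 28.8% in all, again near the background of 29.9%. Of the cholesterol enzymes outside the 28, 4 were in the table and none was called. Acat1, the mitochondrial thiolase and the one with the most copies, had 908 copies in Dox+ and 608 in Dox-, a log2 ratio of -0.54.

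The isoprenoid branches, which draw on the product of Fdps, had 8 of 13 genes with enough copies, 1 called higher and 1 lower. Zmpste24, a protease that trims farnesylated prelamin A, had 1702 copies in Dox+ and 618 in Dox-, 2.69-fold lower. Nus1, a subunit of the enzyme that makes dolichol precursors, had 312 and 514 copies, a log2 ratio of 0.75. The branches thus held calls of both signs, beside Fdps at the same level in both libraries within counting error.

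Sterol sensing and SREBP processing had 15 of 16 genes with enough copies, 3 called higher and 1 lower, and their median log2 ratio was 0.15. Tmem97, a membrane protein that binds NPC1, had 145 copies in Dox+ and 312 in Dox-, 2.20-fold higher. Erlin1, which takes part in protein breakdown at the endoplasmic reticulum, had 324 and 201 copies, a log2 ratio of -0.65. Vcp, the ATPase that extracts proteins for breakdown and the most abundant of the list, had 2140 and 2691 copies, a log2 ratio of 0.37, and was not called.

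The fatty acid targets of SREBP-1c had 10 of 17 genes with enough copies. None was called higher and 4 were called lower, against 15.2% higher and 14.7% lower over all genes, and their median log2 ratio was -0.22. Thrsp, a lipogenic cofactor, had 502 copies in Dox+ and 217 in Dox-, 2.26-fold lower. Scd2, a desaturase and the most abundant of the list, had 2866 and 4111 copies, a log2 ratio of 0.56 that did not reach 1.5-fold, and through it the summed copies of the list were higher in Dox-, by a fold of 1.08 (1.05 to 1.12). With 10 genes read, the count is a description of this list. Adipocyte markers were lower in Dox- as well: 5 of 6 were in the table, with 1503 copies in Dox+ and 1078 in Dox-, a fold of 0.735 (0.679 to 0.795), and their part in the result was not tested.

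Of lipoprotein uptake, efflux and LXR targets, 10 of 17 genes had enough copies, 2 called higher and 1 lower. Arl4c, a small GTPase induced by LXR, had 455 copies in Dox+ and 1264 in Dox-, 2.85-fold higher. Lrp2, a large uptake receptor, had 534 copies in Dox+ and 0 in Dox-, at least 173.8-fold lower with the Dox- count set to 3 copies and at least 140.8-fold lower by the exact 95% limit. Apoe, the most abundant of the list, had 7452 and 6118 copies, a log2 ratio of -0.25. The other gene called higher was Lpcat3, a phospholipid remodelling enzyme named after its values were seen, with 409 and 651 copies, 1.63-fold higher.

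Esterification and ester hydrolysis had 4 of 6 genes with enough copies, none called higher and 1 lower. Soat1, which esterifies cholesterol for storage, had 288 copies in Dox+ and 184 in Dox-, a log2 ratio of -0.61, and Plin3, a droplet coat protein with the most copies, had 312 and 373. Intracellular sterol transport had 11 of 17 genes with enough copies, 2 called higher and 2 lower. Osbp, which exchanges cholesterol between membranes, had 147 and 263 copies, a log2 ratio of 0.87. Stard5, a relative of Stard4, had 167 and 92 copies, a log2 ratio of -0.83. Cav1, the caveolar coat protein with the most copies, had 1882 and 1308, a log2 ratio of -0.49.

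Oxysterol and steroid formation had 8 of 11 listed genes in the table and 4 with enough copies, 1 of them called lower and none higher. Cyp27a1, which makes 27-hydroxycholesterol, had 227 copies in Dox+ and 67 in Dox-, 3.31-fold lower. Ch25h, another oxysterol enzyme and the one with the most copies, had 283 and 321. Cyp11a1, which cuts cholesterol to start steroid synthesis, had no row in the table.

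**Figure D4:**
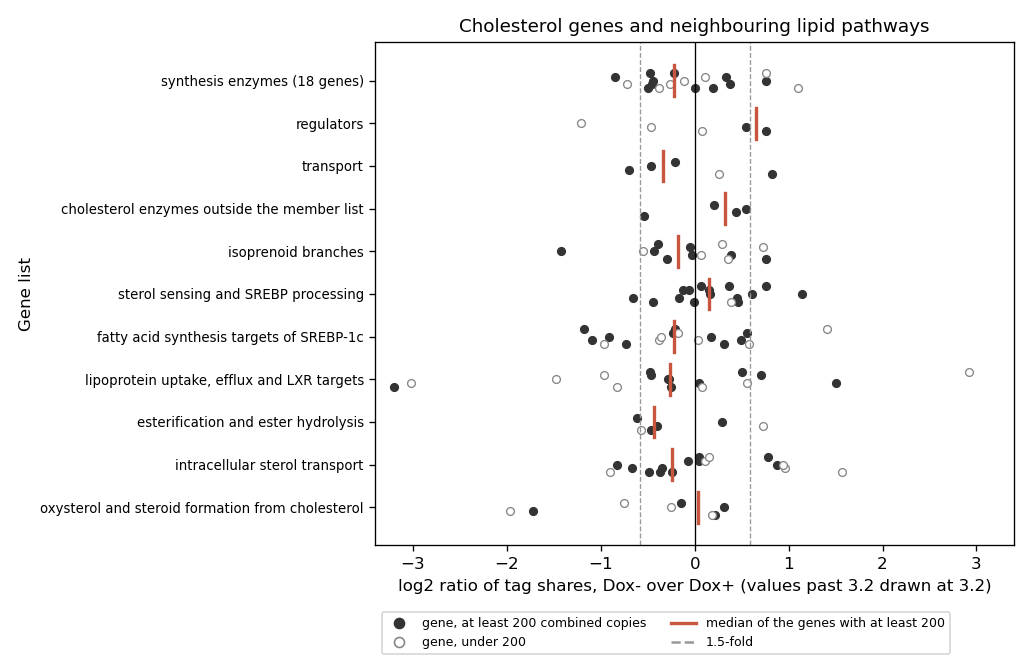
Log2 ratio of tag shares, Dox- over Dox+, of each gene in the synthesis, regulator and transport groups and in 8 neighbouring lipid lists, with filled points for genes with at least 200 combined copies, open points for those under it, red bars at the median of the filled points and dashed lines at 1.5-fold. Filled points lie on both sides of 0 in every list except the regulators, and list medians stay between -0.43 for esterification and 0.65 for the regulators, which rests on 2 genes.

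Summed copies of cell type marker lists differed between the pools, and directions are given for markers with at least 20 combined copies. Myometrium markers were lower in Dox- for 7 of 7 genes, with summed copies of 38898 in Dox+ and 26201 in Dox- (fold 0.690). Endothelium markers, 7 of 7 in the table, summed to 1177 and 805 (fold 0.700), but 3 of the 7, Pecam1, Eng and Kdr, had ratios above 1. Epithelium markers, 8 of 8, summed to 6539 and 7272 (fold 1.14), with 6 ratios above 1 and 2, of Cldn3 and Cldn4, below. Stroma markers, 7 of 7, summed to 47955 and 57653 (fold 1.23), with 4 ratios above 1, 3 below and a median log2 ratio of 0.00, and Col1a1 alone had 23017 and 33696 copies. Leukocyte markers, 7 of 8, summed to 393 and 568 (fold 1.48), with 5 ratios above 1 and 1, of Csf1r, below. Csf1r had 186 copies in Dox+ and 181 in Dox-. Blood markers, 4 of 5, summed to 66 and 208 (fold 3.23), with 2 ratios above 1, of Hba-a1 and Hba-a2, and 1 below. The marker below was Alas2, with 21 copies in Dox+ and 9 in Dox-, and Hbb-b2 was at 0 in Dox+. Ovary and corpus luteum markers, 2 of 6 in the table, had 7 copies in Dox+ and 2 in Dox-, with Inha at 0 in Dox+ and Akr1c18 at 0 in Dox-. The part of cell makeup in the results of the 28 genes was not tested.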

How the data were processed

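Uterine RNA of 3 females per group was pooled and 1 tag library was sequenced from each pool. The authors removed adaptor-only, low quality and single-copy tags, aligned the rest to mouse reference transcripts (mm9) and deposited counts of unambiguous tags per gene. The authors derived TPM as copies per 1000000 clean tags, without length correction. The authors' comparison columns, a ratio and its inverse, a log2 ratio, and a P-value with its FDR, were not used. The submitters' processing notes name CASAVA, and the aligner is not given in the sources used here. The labels mention RNA fragmentation where the methods describe tags, which was not resolved.

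Library sizes were the clean tags, recovered from TPM and counts (5985925 and 5844315), and all 27998 TPM values above 0 copies matched the counts within 0.0065. Tag shares were compared without a pseudocount, and counts of 3 or fewer were set to 3. With 1 library per group no test between groups was made. Vegfa, all 28 genes by role and, of each other list, the gene with the most copies and those with the largest called fold in each direction are named. Some listed genes are not reported here. Both the 28 genes and the lists were chosen with earlier results of these data known. Alternatives were other copy minimums and folds, the Audic-Claverie test at an FDR below 0.05, a pseudocount of 1, the mean, and scaling by TMM (edgeR 4.0.16, R 4.3.3), median ratios or counted tags. Intervals and calls were tested on simulated counts that held Poisson counting error only. Such counts meet the assumption of the intervals, so this test cannot speak for variation between uteri or libraries. Positions and lengths came from GENCODE on NCBIM37. Computation ran in Python 3.11.15 (scipy 1.17.1, numpy 2.4.6, pandas 2.3.3), and plots were drawn with matplotlib 3.10.9.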

Additional observations from a re-analysis of the deposited data

How the results depend on the processing

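No paired analysis was possible because each group had 1 library, and no library could be left out for the same reason. With a minimum of 100 combined copies (25 of the 28 genes read), of 20 or with none (all 28), 5 of the 28 genes were called higher and 4 lower, with Sc4mol, Sc5d, Idi1 and Scap added, and 3 enzymes were called higher and 2 lower. Over all genes, 16.6% were then higher and 15.6% lower at 100 copies, 19.7% (2385) and 18.7% (2256) of 12079 at 20 copies, and 19.5% (2869) and 19.3% (2830) of 14678 without a minimum. In the other lists 14 were higher and 18 lower at 20 copies, and 15 and 19 without a minimum. At a fold of at least 2, 0 of the 28 genes and 0 enzymes were called in either direction, beside 302 genes higher and 368 lower in the table and 2 and 5 in the other lists. An absolute log2 ratio above 0.5 added Srebf2 as higher and Acat2 as lower, for 2 enzymes lower. TMM, median-ratio and counted-tag scaling, the pseudocount, the Audic-Claverie FDR and the interval rule each called the same 5 genes. All 112 log2 ratios of the 28 genes under the 3 scalings and the pseudocount stayed within their own intervals, and scaling shifted every log2 ratio by -0.04 to 0.04. The median log2 ratio of the 28 genes with enough copies, and their mean, stayed between -0.25 and -0.03. Depth limits Hsd17b7, Stard4 and Tm7sf2 most. The floor of 3 copies, to which lower counts and 0 were raised in the ratios, was 0.501 TPM in Dox+ and 0.513 in Dox-.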

Other observations

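The table's own gene ontology column gave a further list, chosen after seeing the data: genes of cholesterol metabolic process outside the 28. Of its 25 genes, 15 had enough copies, 1 called higher and 3 lower, 26.7% in all beside 29.9% over the table, with a median log2 ratio of 0.05. Cyb5r3, a reductase that passes electrons to sterol and fatty acid enzymes, had 1648 copies in Dox+ and 700 in Dox-, a log2 ratio of -1.20. Acaa2, a thiolase of mitochondrial fatty acid oxidation, had 1495 and 883, a log2 ratio of -0.72. G6pdx, which supplies NADPH, had 281 and 434 copies, a log2 ratio of 0.66.

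Other values were singled out after they were seen, each on too few copies for a call. Cftr, a chloride channel listed under the same term, had 17 copies in Dox+ and 131 in Dox-. Lrp8, a lipoprotein receptor, had 5 and 37 copies. Stard3, a late endosomal sterol carrier, had 29 and 84 copies. Cd36, a fatty acid and lipoprotein scavenger receptor, had 94 and 33 copies.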
